A study of Mus musculus with 6 samples.

Results

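The *Hox* genes of the 4 mouse clusters were examined in wild-type (WT) mouse embryonic stem cells (mESCs) and in mESCs with a heterozygous or a homozygous deletion of the *Wnt6* loop anchor. Members were chosen by name, as *Hoxa*, *Hoxb*, *Hoxc* or *Hoxd* followed by a paralog number, and 38 of the 55385 genes in the count table are described here. Every count and sum of members below is over these 38 genes. *Hoxa* had 10 members, *Hoxb* 10, *Hoxc* 9 and *Hoxd* 9. The members were ordered from anterior to posterior by paralog number, with 7 genes in the anterior groups (1 to 3), 15 in the central groups (4 to 8) and 16 in the posterior groups (9 to 13).

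The study deleted genomic regions that anchor long-range contacts between Polycomb-repressed loci, and asked here whether loss of the *Wnt6* anchor, which contacts *Pax3*, altered gene expression in mESCs. The parental line was G4, an F1 hybrid of 129/Sv and C57BL/6, and the deletions were made with CRISPR-Cas9 and a pair of guide RNAs in clones screened by PCR. Polyadenylated RNA was sequenced in 2 libraries each of the WT, the heterozygous deletion and the homozygous deletion. In all 3 genotypes the cells grew with LIF, the cytokine that maintains self-renewal, on CD1 feeder cells, so that each library could hold RNA from feeders. The labels do not say whether the 2 libraries of a genotype came from separate cultures or clones, and p-values therefore measure only the spread between these libraries, which may be technical.

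*Hox* genes encode homeodomain transcription factors that assign position along the body axis, and their order on the chromosome follows the order of their expression from head to tail. In mESCs the clusters are textbook targets of Polycomb repression, carrying H3K27me3, and they open progressively from the anterior end when cells respond to retinoic acid, Wnt or FGF signals. Fibroblasts, in contrast, keep the *Hox* code of the body region from which they were taken.

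RefSeq (GRCm38.p6) held a promoter entry for 22 of the 38 members, 4 of them among the 7 members that passed the adjusted p threshold in any comparison. The 250 bases upstream of the RefSeq transcript start of those 4 genes are shown because CpG-rich promoters are the usual Polycomb targets. Every CG dinucleotide is in capitals, each sequence reads 5′ to 3′ on the strand of the gene, and the regions are chr2:74667975-74668224 (*Hoxd13*, plus strand), chr6:52227371-52227620 (*Hoxa9*, minus strand), chr6:52245811-52246060 (*Hoxa11*, minus strand) and chr11:96281655-96281904 (*Hoxb8*, plus strand). The *Hoxa9* stretch lies inside the longer GENCODE gene (52223100 to 52231089) over which its exon length was taken, whereas the other 3 lie outside theirs.
Hoxd13: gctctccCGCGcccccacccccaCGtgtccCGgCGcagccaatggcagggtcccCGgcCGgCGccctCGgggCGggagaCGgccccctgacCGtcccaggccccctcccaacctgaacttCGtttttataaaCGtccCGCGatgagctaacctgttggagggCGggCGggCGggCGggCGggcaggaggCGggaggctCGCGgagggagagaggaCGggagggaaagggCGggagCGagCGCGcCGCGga
Hoxa9: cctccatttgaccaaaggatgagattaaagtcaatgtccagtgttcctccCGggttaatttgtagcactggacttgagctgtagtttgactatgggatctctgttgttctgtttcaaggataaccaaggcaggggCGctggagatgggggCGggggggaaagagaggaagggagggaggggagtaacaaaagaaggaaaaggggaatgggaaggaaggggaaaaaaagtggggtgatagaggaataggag
Hoxa11: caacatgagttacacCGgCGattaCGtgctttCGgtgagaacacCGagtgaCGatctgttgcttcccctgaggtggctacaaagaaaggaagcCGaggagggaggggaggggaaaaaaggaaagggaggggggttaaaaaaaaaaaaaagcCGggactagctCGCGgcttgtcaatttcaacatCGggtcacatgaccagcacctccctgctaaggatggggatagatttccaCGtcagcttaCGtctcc
Hoxb8: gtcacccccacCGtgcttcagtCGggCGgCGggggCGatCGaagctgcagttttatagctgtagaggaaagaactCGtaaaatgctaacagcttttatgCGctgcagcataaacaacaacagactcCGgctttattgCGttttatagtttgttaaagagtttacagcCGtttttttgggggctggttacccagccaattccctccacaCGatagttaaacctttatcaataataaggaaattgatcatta

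The *Hoxd13* stretch held 31 CG dinucleotides, against 13 for *Hoxa11*, 12 for *Hoxb8* and 3 for the stretch within *Hoxa9*. Over the 24 *Hox* promoter entries the median was 12.5, and 21 of them lay at or above the median of 6 over all 32851 promoters in the table. The letters TATAAA, searched on both strands, occurred in 4 of the 24 *Hox* stretches, *Hoxd13* and *Hoxb8* among them, and in 12.4% of all promoters. TGATNNAT, a site type bound by *Hox* proteins together with their Pbx partners, was also searched on both strands and occurred in 4 of 24, *Hoxb8* among them, and in 7.68% of all.

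Library totals ranged from 23813912 to 28964706 counts assigned to genes. *Wnt6* had 11 and 13 counts in the WT libraries, 6 and 4 in the heterozygous libraries and 0 in both homozygous libraries, so the transcript counts followed the labelled genotypes. The pluripotency markers that define mESCs were all detected, with *Pou5f1* at 876 to 1064 CPM. CPM here are counts per 1000000 counts of the library after TMM scaling, edgeR's correction for differences in RNA composition.

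*Hox* transcripts were scarce in every library. The 38 genes together took 19.2 to 31.7 CPM of the unscaled totals, and only 5 of them averaged above 1 CPM, against a median of 13.95 CPM over all 16951 genes that entered the test. Every member had at least 1 count somewhere, yet *Hoxc12*, *Hoxd1* and *Hoxd3* never exceeded 3 counts. Among the 32934 genes with any count, the members lay between percentiles 16.7 and 68.5 of mean CPM, with a median of 52.3. At this depth 3 counts correspond to 0.104 to 0.126 CPM, so a member below that level was not measurable as different from 0 within counting error.

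Levels between genes were compared per kilobase of annotated exon. *Hoxd13*, a determinant of digit formation and the most posterior gene of its cluster, led with a mean of 2.46 CPM per kb over the 6 libraries (1.93 to 3.14), and all of its libraries lay above all libraries of the next gene. *Hoxb9*, which patterns the thoracic skeleton, came next with 0.787 CPM per kb (0.433 to 0.977) and exceeded *Hoxa10*, at 0.506 CPM per kb, within each library. From there down to *Hoxd4* (0.0296 CPM per kb), no gene exceeded the next in the order in every library. The highest gene was the most posterior one in *Hoxc* (*Hoxc13*, 0.410 CPM per kb) and in *Hoxd*. Scaled by the longest transcript instead of all exon bases, *Hoxc13* came behind *Hoxc6* (0.433 CPM per kb).

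**Figure D1:**
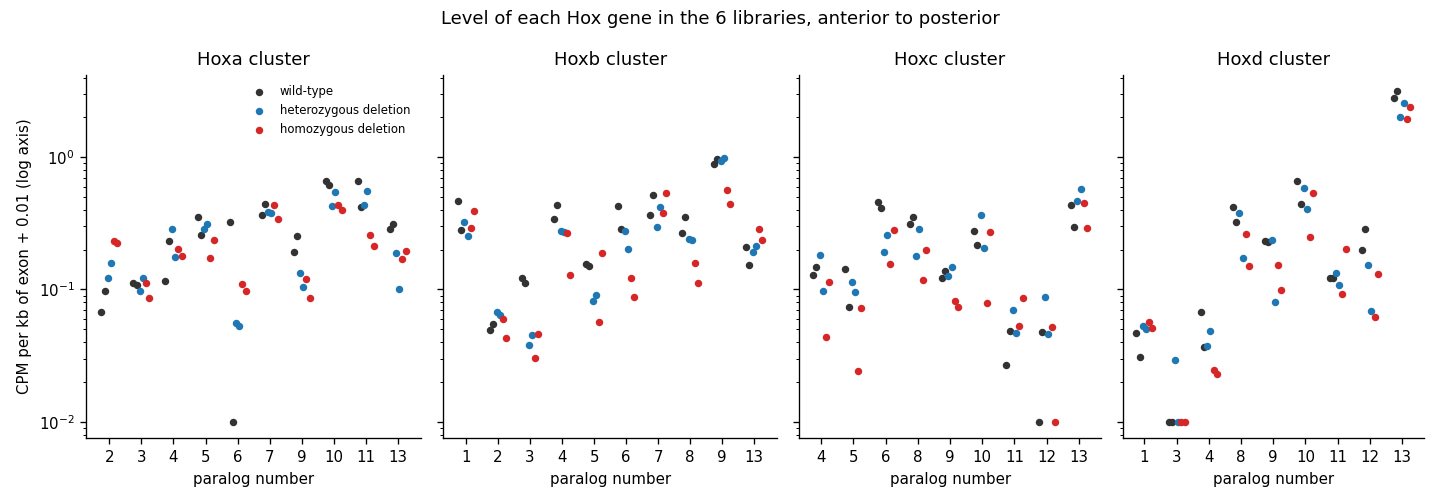
CPM per kb of exon (plus 0.01, log axis) of each of the 38 *Hox* genes by cluster and paralog number, with 1 point per library coloured by genotype. *Hoxd13* (1.93 to 3.14 CPM per kb) stands above every other member plotted, and points at the bottom line are libraries with 0 counts.

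As a share of all *Hox* CPM, *Hoxd13* made up 23.7% in the WT, 22.3% in the heterozygous deletion and 25.6% in the homozygous deletion, with overlap between the genotypes. The *Hoxd* cluster as a whole made up 35.6%, 33.6% and 37.0%, and the posterior genes of all clusters 62.9%, 64.4% and 63.3%.

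The *Hoxa* genes described lie on chromosome 6 between 52162417 and 52260880 (GRCm38). *Hoxa2*, which gives the second branchial arch its identity, stayed near the counting limit with 3 and 4 counts in WT, 5 and 7 in heterozygous libraries and 9 and 10 in homozygous ones. That stepwise order did not overlap between genotypes, but *Hoxa2* failed the filter of at least 10 counts in at least 2 libraries and was not tested.

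Among the posterior *Hoxa* genes, *Hoxa9*, known for its role in blood progenitors, had 30 and 35 counts in WT, 17 and 14 in heterozygous libraries and 14 and 11 in homozygous ones. *Hoxa10*, which patterns the lumbar region and the uterus, had 63 and 51, then 34 and 47, then 32 and 33. For both genes the WT libraries were the 2 highest. *Hoxa11*, which shapes the forearm, had 44 and 24 counts in WT and 24 and 33 in heterozygous libraries, which overlapped, but 13 and 12 in homozygous libraries, below all the others. The central gene *Hoxa7* had 30 and 32 counts in WT, 27 and 28 in heterozygous libraries and 28 and 25 in homozygous ones. Its CPM overlapped between the genotypes. The remaining *Hoxa* genes had 0 to 8 counts for *Hoxa6*, 12 to 18 for *Hoxa3*, 5 to 11 for *Hoxa4*, 7 to 19 for *Hoxa5* and 6 to 20 for *Hoxa13*.

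The *Hoxb* cluster lies on chromosome 11 between 96194316 and 96368256. *Hoxb9* had 66 and 63 counts in WT and 59 and 67 in heterozygous libraries, but only 33 and 29 in homozygous libraries. *Hoxb6* had 24 and 14 counts in WT, 13 and 10 in heterozygous libraries and 5 and 4 in homozygous ones. *Hoxb8*, used to hold myeloid progenitors in culture and expressed in the trunk, had 20 and 23, then 15 and 16, then 9 and 7. Both genes fell into 3 ranges that did not overlap, with WT highest and the homozygous deletion lowest. *Hoxb3*, a hindbrain and pharyngeal patterning gene, had 14 and 11 counts in WT, 3 and 4 in heterozygous libraries and 2 and 4 in homozygous ones, so both deletions sat at or near the 3-count limit.

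*Hoxb4*, known from blood stem cells, had 25 and 28 counts in WT, 17 and 18 in heterozygous libraries and 15 and 8 in homozygous ones, and its CPM also fell into 3 ranges that did not overlap, though it was not called (adjusted p = 0.0642 in the homozygous deletion, edgeR). *Hoxb7* had 16 and 20 counts in WT, 11 and 17 in heterozygous libraries and 13 and 21 in homozygous ones. *Hoxb1*, which specifies a hindbrain segment, had 31 and 16, then 18 and 15, then 15 and 23. In *Hoxb7* and *Hoxb1* the genotypes overlapped. *Hoxb2* (3 to 5 counts), *Hoxb5* (3 to 13) and *Hoxb13* (8 to 14), a prostate regulator, had few counts in every library.

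The *Hoxc* cluster, on chromosome 15 between 102921103 and 103036852, was the weakest in sum. *Hoxc13*, a regulator of hair and nail keratins, was its highest member per kb with 31 and 18 counts in WT, 28 and 37 in heterozygous libraries and 25 and 18 in homozygous ones. *Hoxc6* had 32 and 25, then 11 and 16, then 8 and 17, and *Hoxc8*, which patterns the thorax and its motor neurons, had 25 and 25, then 12 and 21, then 7 and 14. WT was highest for *Hoxc6* and *Hoxc8*, and the 2 deletions overlapped for both. The other 6 genes ranged from 0 to 2 counts for *Hoxc12* to 3 to 17 for *Hoxc10*.

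The *Hoxd* cluster lies on chromosome 2 between 74668310 and 74765142. *Hoxd13* had 202 and 199 counts in WT, 124 and 168 in heterozygous libraries and 110 and 154 in homozygous ones. WT was again highest and the 2 deletions overlapped. *Hoxd10*, a motor neuron gene of the lumbar cord, had 35 and 20, then 26 and 19, then 10 and 25, and *Hoxd8* had 33 and 22, then 25 and 12, then 16 and 10. The genotypes overlapped for *Hoxd10*, and the homozygous libraries lay below WT for *Hoxd8*. *Hoxd9* (4 to 14 counts), *Hoxd11* (8 to 21) and *Hoxd12* (3 to 18) were lower, and the anterior genes *Hoxd1* (1 to 2 counts), *Hoxd3* (0 to 2) and *Hoxd4* (1 to 5) were barely detected.

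Summed over the members of each cluster, the homozygous libraries were lower than WT in all 4. Summed CPM of the 38 genes was 31.0 ± 0.277 in WT, 25.3 ± 0.223 in heterozygous and 20.9 ± 1.29 in homozygous cells (SD, n = 2), which is 81.6% and 67.4% of the WT mean for the deletions. Without *Hoxd13*, the best-counted member, the other 37 genes stood at 83.1% and 65.7%. *Hoxb* gave 7.68 ± 0.0399 CPM in WT, 6.32 ± 0.0833 in heterozygous and 4.87 ± 0.0922 in homozygous cells (SD, n = 2). The *Hoxb* steps were larger than the spread between libraries. *Hoxd* gave 11.0 ± 0.242, 8.50 ± 0.185 and 7.76 ± 1.29 CPM, and *Hoxc* 4.28 ± 0.349, 4.03 ± 0.0825 and 2.73 ± 0.591 CPM. *Hoxa* gave 8.01 ± 0.210, 6.44 ± 0.243 and 5.54 ± 0.499 CPM, without overlap between the genotypes. *Hoxc* overlapped between WT and heterozygous libraries, and *Hoxd* between the 2 deletions. No test was run on these sums, since the genes in them were chosen.

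**Figure D2:**
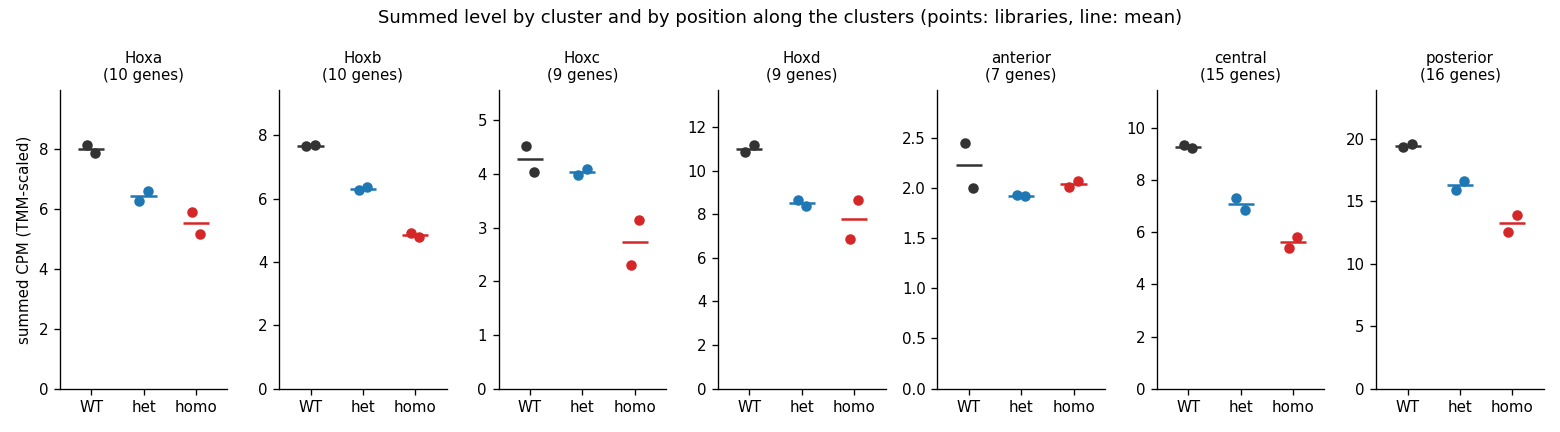
Summed CPM of the 4 clusters and of the anterior, central and posterior paralog groups in each library, with the mean of each genotype as a line; WT, het and homo are the WT, the heterozygous and the homozygous deletion. *Hoxa*, *Hoxb*, central and posterior sums step down from WT to the homozygous deletion without overlap, while the anterior sum of the homozygous libraries overlaps that of WT.

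By position, the central genes summed to 9.29 ± 0.0834 CPM in WT, 7.09 ± 0.310 with 1 deleted allele and 5.62 ± 0.302 with both deleted, and the posterior genes to 19.5 ± 0.127, 16.3 ± 0.542 and 13.2 ± 0.944 CPM. In both groups the 3 genotypes did not overlap. The anterior genes summed to 2.22 ± 0.320, 1.92 ± 0.00909 and 2.04 ± 0.0470 CPM, lower in the heterozygous libraries than in WT and overlapping WT in the homozygous libraries. In these 7 genes the homozygous libraries were slightly above the heterozygous ones.

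Differential expression was tested with edgeR's quasi-likelihood test in 1 fit over the 6 libraries, with Benjamini-Hochberg adjustment over all 16951 genes. Of the 38 members, 26 entered the test and 12 did not (*Hoxa2*, *Hoxa4*, *Hoxa6*, *Hoxb2*, *Hoxc4*, *Hoxc5*, *Hoxc9*, *Hoxc11*, *Hoxc12*, *Hoxd1*, *Hoxd3* and *Hoxd4*). *Hoxb3* and *Hoxd12* entered only through their WT libraries, a way of entry that by itself favours a lower value in the deletions. The comparisons of the 2 deletions with WT share the WT libraries and are not independent.

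In the heterozygous deletion 0 of the 26 tested members were called in edgeR. DESeq2 called 0 as well, but gave an adjusted p to only 3 of the 26. The background was 2.23% of all genes called higher and 2.91% lower (5.14% in either direction). At an unadjusted p under 0.05, 6 members were lower and 0 higher in edgeR, and DESeq2 gave 0 in either direction. With an absolute log2 fold change above 1 also required, the background was 0.0413% of all genes higher, 0.124% lower and 0.165% in either direction. Fold changes of the tested members were below 0 for 21 of 26, with a median of -0.39, and the median over the 34 members above 3 counts in some library compared, fitted without the count filter, was -0.33. Libraries were lower than WT without overlap for 12 of the 26 and higher for 1, against 24.0% and 23.7% of all genes. The median half-width of the 95% intervals was 0.772 on the log2 scale, so smaller changes of a typical member were not detectable at this depth.

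Several members sat low in the heterozygous deletion without passing. *Hoxb3* had a log2 fold change of -1.71 (95% interval -2.89 to -0.53, adjusted p = 0.0963 in edgeR), *Hoxa9* of -0.97 (-1.67 to -0.27, adjusted p = 0.115) and *Hoxd13* of -0.37 (-0.66 to -0.08, adjusted p = 0.155). *Hoxb9*, in contrast, had a value of 0.06 (-0.35 to 0.47).

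In the homozygous deletion 7 of the 26 tested members fell and 0 were called higher in edgeR, with 0 higher at an unadjusted p under 0.05. DESeq2 left 19 of the 26 without an adjusted p and called 0. *Hoxb6* fell from 0.682 ± 0.190 to 0.186 ± 0.0457 CPM, with a log2 fold change of -1.88 (SE 0.501, adjusted p = 0.0102, edgeR). *Hoxb3* fell from 0.453 ± 0.0323 to 0.120 ± 0.0469 CPM, at -1.85 (SE 0.586, adjusted p = 0.0289). These 2 *Hoxb* genes had the largest falls but also the fewest counts, and their intervals were the widest of the 7 lower genes, from -2.93 to -0.83 and from -3.08 to -0.63. *Hoxa11* fell by 1.26 (SE 0.357, adjusted p = 0.0148), *Hoxb8* by 1.25 (SE 0.415, adjusted p = 0.0370) and *Hoxa9* by 1.21 (SE 0.351, adjusted p = 0.0180) on the log2 scale. *Hoxb9* fell by 0.89 (SE 0.226, adjusted p = 0.00740) and *Hoxd13* by 0.44 (SE 0.140, adjusted p = 0.0297). The best-counted gene, *Hoxd13*, therefore had the smallest of the 7 falls.

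By cluster, 4 of the 9 tested *Hoxb* genes were called lower, with 2 of 7 in *Hoxa*, 1 of 6 in *Hoxd* and 0 of 4 in *Hoxc*. *Hoxc6* (-1.02, adjusted p = 0.0539) and *Hoxc8* (-1.08, adjusted p = 0.0590) missed the threshold in edgeR by little, and 2 of the 4 *Hoxc* genes were lower at an unadjusted p under 0.05. By position, 4 of 13 posterior, 2 of 10 central and 1 of 3 anterior genes were lower. The anterior one was *Hoxb3*, which entered the test only through its WT libraries, a way of entry that favours a lower value. *Hoxb3* is also counted among the 4 *Hoxb* genes, the 7 called lower and those past the fold threshold. The same holds for *Hoxb6* and *Hoxb8*, whose entry without a homozygous library also favours a lower value. Over all 26, 7 called lower are 26.9%, against 10.5% of all genes, and 10.9% of all genes were called higher (21.4% in either direction). With the fold threshold added, *Hoxa9*, *Hoxa11*, *Hoxb3*, *Hoxb6* and *Hoxb8* passed, all lower, against 1.86% of all genes lower, 0.271% higher and 2.14% in either direction. Fold changes were below 0 for 23 of 26, with a median of -0.68. Without the count filter, 29 of the 35 members above 3 counts in some library compared were below 0, with a median of -0.73. Libraries were lower than WT without overlap for 16 of 26 and higher for 1, against 29.4% and 28.4% of all genes.

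Not all tested members were lower in the homozygous deletion. *Hoxb7* had a log2 fold change of 0.08 (95% interval -0.71 to 0.87), *Hoxc13* of -0.02 (-0.72 to 0.69), *Hoxd11* of 0.32 (-0.60 to 1.23) and *Hoxb13* of 0.53 (-0.37 to 1.43). Of the called falls, the intervals of *Hoxb7*, *Hoxc13* and *Hoxd11* include only that of *Hoxd13* (-0.44), and the interval of *Hoxb13* includes none. Each interval also includes no change.

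**Figure D3:**
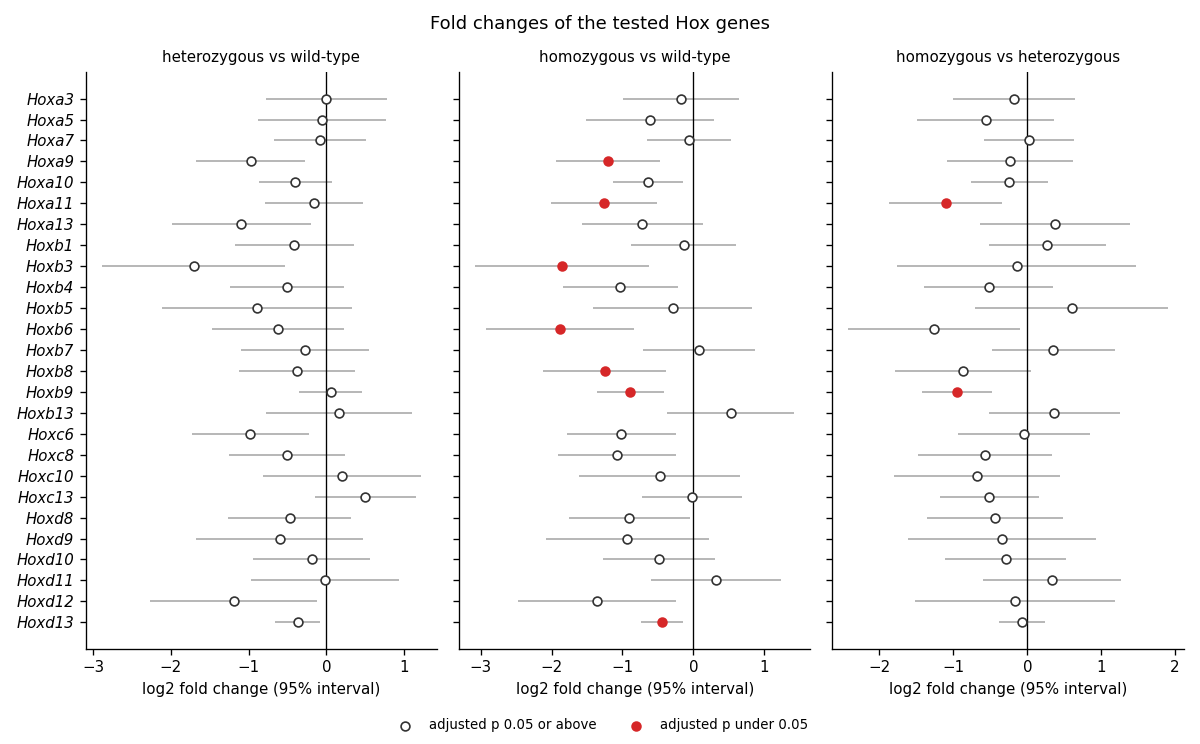
Log2 fold change with its 95% interval for the 26 tested *Hox* genes in the 3 comparisons, ordered by cluster and paralog number, with filled red points for an adjusted p under 0.05 (edgeR). No point is red in the comparison of heterozygous cells with WT, and the 7 red points of homozygous cells against WT range from -1.88 for *Hoxb6* to -0.44 for *Hoxd13*.

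The homozygous and heterozygous deletions were then compared directly. *Hoxb9* was at 2.44 ± 0.103 CPM in heterozygous cells and 1.28 ± 0.231 CPM in homozygous cells, a log2 fold change of -0.94 (SE 0.226, adjusted p = 0.00422, edgeR). *Hoxa11* was at 1.10 ± 0.195 and 0.514 ± 0.0752 CPM, a log2 fold change of -1.11 (SE 0.368, adjusted p = 0.0330). For both genes the heterozygous libraries overlapped the WT libraries. These were 2 of 26 tested members called lower, against 12.9% of all genes (25.8% in either direction), and only *Hoxa11* also passed the fold threshold, against 0.897% of all genes lower and 1.39% in either direction. No member was called higher, 0 in edgeR and 0 in DESeq2, which left 23 of the 26 without an adjusted p. At an unadjusted p under 0.05, 0 were higher. Fold changes were below 0 for 19 of 26, with a median of -0.24, and 7 of 26 were lower without overlap, against 32.8% of all genes.

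The other tested members were not called between the 2 deletions in edgeR. *Hoxd13* differed by -0.07 (95% interval -0.38 to 0.24), so a difference of 0.5 or more between the deletions lay outside its interval. *Hoxb3* differed by -0.14, but with an interval from -1.76 to 1.47, and *Hoxb6* by -1.26 (-2.42 to -0.10, adjusted p = 0.105 in edgeR). *Hoxa5*, *Hoxb4*, *Hoxb6*, *Hoxb8* and *Hoxc13* were lower without overlap of the libraries but missed the threshold, with adjusted p from 0.105 to 0.393 in edgeR.

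**Figure D4:**
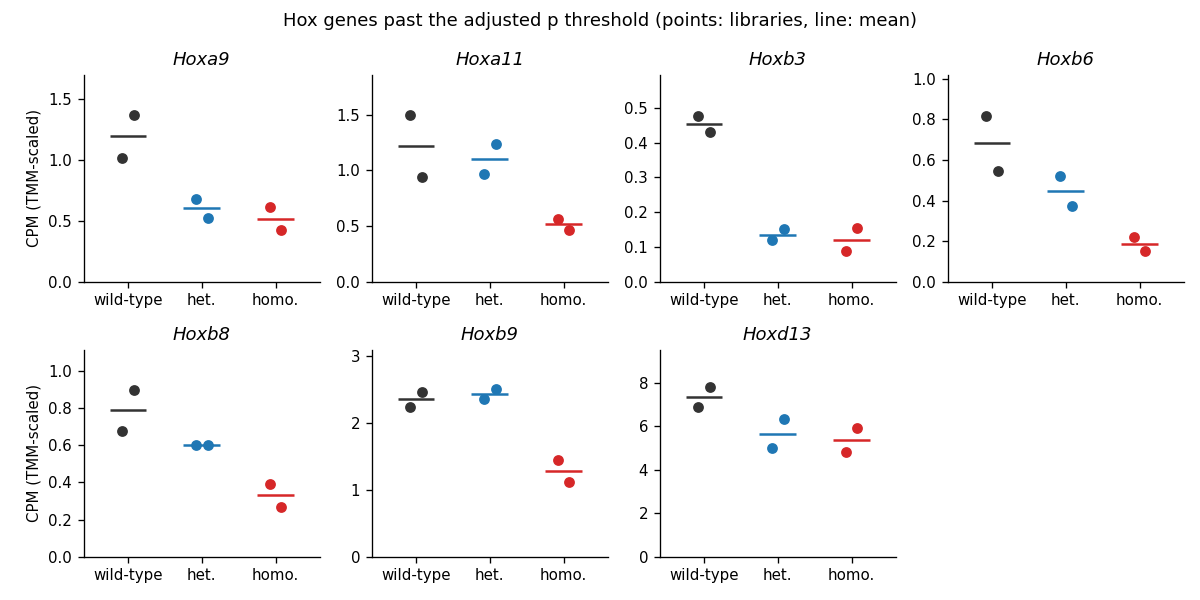
CPM of the 7 *Hox* genes that passed the adjusted p threshold in any comparison, with 1 point per library and the genotype mean as a line; het. and homo. are the heterozygous and homozygous deletions. *Hoxb6* and *Hoxb8* step down over the 3 genotypes, and *Hoxb9* and *Hoxa11* are lower in the homozygous deletion alone. For *Hoxb3*, *Hoxa9* and *Hoxd13* the libraries of the heterozygous and homozygous deletions overlap.

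With 2 libraries per genotype, individual calls depended on single libraries. All 7 calls against WT in the homozygous deletion kept their direction when any library was left out, but not their adjusted p under 0.05 in edgeR. Of the 7, *Hoxa9*, *Hoxb9* and *Hoxd13* were still called without WT replicate 1, and *Hoxa11* and *Hoxb6* without WT replicate 2. Without heterozygous replicate 2, *Hoxb8* was lost. Without homozygous replicate 1, *Hoxb3* and *Hoxd13* were lost and *Hoxb4* was gained. Without homozygous replicate 2, only *Hoxb3* and *Hoxd13* remained of the 7, and *Hoxc6*, *Hoxc8* and *Hoxd12* were gained. DESeq2 leaves genes of low mean count without an adjusted p. In the homozygous comparison with WT it did so for 19 of the 26 members and called 0, while 5 were lower at its unadjusted p under 0.05. In each of the other comparisons it did so for 23 of the 26. Between the deletions, the call of *Hoxb9* held without each library, and that of *Hoxa11* was lost without heterozygous replicate 1 (adjusted p = 0.0514 in edgeR), heterozygous replicate 2 (0.202) or homozygous replicate 2 (0.112).

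Reads of overlapping genes could not always be assigned. In the GENCODE annotation 23 of the 38 members shared no exon bases with another gene, among them *Hoxb6*, *Hoxb8*, *Hoxb9* and *Hoxd13*. *Hoxb3* shared 52.9% of its exon bases with *Hoxb3os* on the opposite strand, and *Hoxa11* 35.0% with *Hoxa11os*. The strand setting of the counting is not given in the sources used here, so the values of both genes may include antisense reads or have lost sense reads to them. *Hoxa11os* had log2 fold changes of -0.67 and -0.74 in the heterozygous and homozygous deletions, with adjusted p of 0.484 and 0.261 in edgeR.

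*Hox* proteins bind DNA with TALE-class partners, of which the 9 Pbx, Meis and Pknox genes were all tested. In the heterozygous deletion 0 were called by edgeR, 0 by DESeq2 and 0 passed an unadjusted p under 0.05. In the homozygous deletion edgeR called *Pbx4* higher (0.50, adjusted p = 0.0251) and *Pbx2* lower (-0.16, adjusted p = 0.0251). The other 7 of the 9 were not called, a share of calls near the 21.4% of all genes, and DESeq2 called 0. The summed level of the 9 genes was 169.5 to 173.7 CPM across the 6 libraries. Among 18 regulators that act upstream of *Hox* genes, the retinoic acid receptors *Rara* (-0.38, adjusted p = 0.000479) and *Rarg* (-0.34, adjusted p = 8.73e-05) fell in the heterozygous deletion (edgeR). The other 16 were not called, and 5.14% of all genes were called in that comparison. In the homozygous deletion *Rarg* (0.14), *Eed* (0.13), a core subunit of the Polycomb complex PRC2, and *Kmt2a* (0.21), a trithorax methyltransferase, rose, and *Gdf11* (-0.70), a signal that activates posterior *Hox* genes in the embryo, fell, with adjusted p from 0.0120 to 0.0371 in edgeR. These are 4 of 18, near the 21.4% of all genes called in that comparison, and DESeq2 called 1 of the 18. *Cdx2*, a direct activator of central *Hox* genes, had 28 and 30 counts in WT, 45 and 43 in heterozygous libraries and 23 and 33 in homozygous ones and was not called against WT.

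In and beside the clusters, 11 noncoding genes were in the table and 3 had enough counts to be tested, *Halr1*, *Hotairm1* and *Hoxa11os*. By edgeR and by DESeq2 0 of 3 were called in each comparison, and 1 had an unadjusted p under 0.05 between the deletions (edgeR). *Halr1* was the best measured at 12.2 to 15.1 CPM, with log2 fold changes of -0.14 (SE 0.0873) and 0.09 (SE 0.0858). It lies outside the span of the described *Hoxa* genes, at 52102949 to 52113684 on chromosome 6. Of the 10 protein-coding neighbours of the clusters in the table, 9 were tested. In the heterozygous deletion 0 were called by either tool and 0 had an unadjusted p under 0.05. In the homozygous one edgeR called 1 of the 9, *Skap2* (0.18, adjusted p = 0.0429), against 21.4% of all genes, and DESeq2 called 0. The homeobox neighbour *Evx2*, beside *Hoxd13*, had 13 and 10 counts in WT, 1 and 8 in heterozygous libraries and 7 and 5 in homozygous ones and was not called.

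Markers of fibroblasts, the usual cell type of feeders, were also lower in sum in both deletions. All 34 markers were detected, and their summed level was 5554 to 5631 CPM in WT, 4319 to 4328 in heterozygous libraries and 3118 to 3158 in homozygous ones, or 77.3% and 56.1% of WT. Of the 32 tested, 24 fell in the heterozygous deletion, 29 in the homozygous one, and 28 were lower when the homozygous deletion was set against the heterozygous one (edgeR). In that last comparison 1 marker, *Mmp2*, was called higher (0.32, adjusted p = 0.00402, edgeR). Over all genes, 2.91%, 10.5% and 12.9% were called lower in the same comparisons. The 38 *Hox* genes stood at 81.6% and 67.4% of WT over the same libraries. Between the deletions the 2 lists differed, with 2 of 26 tested *Hox* genes called lower. The median log2 fold change there was -0.24 for the tested *Hox* genes and -0.59 for the tested fibroblast markers. In bulk RNA, fewer cells of a type and less RNA per cell cannot be told apart, and the part of feeder RNA in the *Hox* values was not tested. The 10 embryonic stem cell markers summed to 98.9% to 101% of the WT mean in WT libraries, 90.02% to 91.7% in heterozygous and 99.7% to 105% in homozygous libraries. Of the 10, 6 were called lower in the heterozygous deletion (edgeR), against 2.91% of all genes. In the homozygous deletion 1 was called higher and 1 lower, near the 10.9% and 10.5% of all genes. Between the deletions 8 were higher in the homozygous one, against 12.9% of all genes. Neural markers were called higher in the homozygous deletion for all 4 that were tested (edgeR), against 10.9% of all genes. Their summed levels were 284 to 293 CPM in WT, 304 to 313 in heterozygous libraries and 348 to 353 in homozygous ones. *Nes*, at a mean of 228.6 CPM, made up most of that sum. In the heterozygous deletion 3 of the 4 had fold changes below 0, and only *Nes* was called (0.19, adjusted p = 0.0113 in edgeR). The part of the neural markers in the *Hox* values was likewise not tested. The 6 early mesoderm markers summed to 9.43 to 10.5 CPM in WT, 11.1 to 12.2 in heterozygous libraries and 9.34 to 10.4 in homozygous ones, and the 6 endoderm markers to 3.20 to 3.21, 4.78 to 5.82 and 2.92 to 3.65 CPM. The endoderm sum of the heterozygous libraries lay above WT without overlap, at 165% of WT, though edgeR called neither of the 2 endoderm markers tested against WT. *T*, a mesoderm marker, had 112 and 87 counts in WT, 112 and 141 in heterozygous libraries and 51 and 57 in homozygous ones. *T* fell in the homozygous deletion (-0.71, adjusted p = 0.00651 in edgeR), 1 of 4 tested mesoderm markers, against 10.5% of all genes. The other tested ones, *Eomes* (0.34), *Mixl1* (0.22) and *Tbx6* (-0.07), were not called there. The part of both marker lists in the *Hox* values was not tested.

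**Figure D5:**
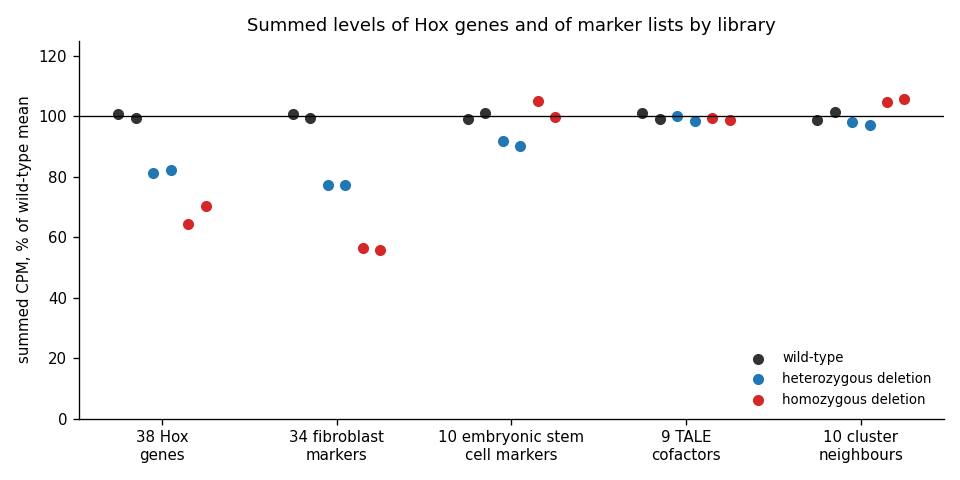
Summed CPM of 5 gene lists in each library as a percentage of the WT mean. The 38 *Hox* genes and the 34 fibroblast markers step down from WT to the homozygous deletion (to 64.5% and 70.4%, and to 56.5% and 55.8%), while the TALE cofactors stay between 98.5% and 101%.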

How the data were processed

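RNA-seq libraries were prepared from polyadenylated RNA with a stranded kit, and the authors deposited raw read counts per gene for the 6 libraries, not normalised. The submitters' processing notes name Trimmomatic 0.39, STAR 2.6.1d, SAMtools 1.9, featureCounts 1.6.4 and DESeq2 1.22.2, with mm10 (GRCm38). The strand setting and annotation release of the counting are not given in the sources used here. The study's methods describe triplicates, and 2 libraries per genotype were analysed here. The deposited table lists 0 mitochondrial genes with a count. It holds no columns of the authors' comparisons.

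Genes reaching 10 counts in 2 or more libraries were tested in edgeR 4.0.16 (R 4.3.3) with TMM scaling, glmQLFit and glmQLFTest on genotype, and Benjamini-Hochberg adjustment. A call needed an adjusted p under 0.05, and for the study's threshold an absolute log2 fold change above 1 as well. The biological coefficient of variation was 3.52%. CPM use TMM-scaled library sizes, exon lengths come from the GENCODE M21 annotation, and promoters from RefSeq. Replicates differed by more than sampling noise (chi-square per degree of freedom 2.31, 2.41 and 3.54). Alternatives were DESeq2 1.42.0, other scalings and filters, a replicate block and leaving out each library. Members with an adjusted p under 0.05, and the 3 highest per kb in each cluster, are given in every library, as are members at the counting limit where a result turns on them. From the other gene lists, genes past the threshold and a few examples are named. A gene that matches the rule is not reported here. *Hoxa2*, *Hoxb4* and *Evx2* were named after their values were seen. The members and lists were chosen with earlier results of these data known. The scripts were tested on simulated data. Floors cover counting error only, and intervals come from the edgeR fit, which includes the spread between libraries.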

Additional observations from a re-analysis of the deposited data

Results flagged for a closer look

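*Hoxa11* and *Hoxb9* differed by a direct test of the homozygous against the heterozygous libraries. These were 2 of 26 tested members called lower, against 12.9% of all genes. The call of *Hoxa11* depended on single libraries, as given above. The log2 difference was -1.11 for *Hoxa11* (adjusted p = 0.0330, edgeR; -1.27 to -0.91 over 14 alternatives) and -0.94 for *Hoxb9* (adjusted p = 0.00422; -1.12 to -0.76 over 15 alternatives). All homozygous libraries were below all heterozygous libraries for both genes.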

How the results depend on the processing

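No *Hox* result reported here changed direction past a threshold under any alternative. In the heterozygous comparison 0 members were called by edgeR under each alternative (6 at an unadjusted p under 0.05 in edgeR). DESeq2, with an adjusted p for only 3 of the 26, called 0. The median fold change was -0.18 with no count filter (all 38 members) and -0.23 with at least 5 counts, against -0.39. In the homozygous comparison DESeq2 called 0 members (0 with the fold threshold, 5 at an unadjusted p under 0.05) and no filter called 12 (9 with it), against 7 and 5, and leaving out a library gave 2 to 7 (1 to 6). Between the deletions DESeq2 called 1 (0 with the fold threshold), scaling by total counts or a fold threshold of 0.5 gave 2 with both thresholds, and leaving out a library gave 1 to 2 (0 to 2). Scaling by total counts moved the summed *Hoxb* log2 ratio from -0.66 to -0.72 against WT and from -0.38 to -0.45 between deletions; the cause was not tested for these changes. Replicate numbers did not pair the libraries (correlations of deviations 0.0261, -0.0944 and 0.00865 over 16951 genes), and a replicate block called 0, 8 and 2 members in the 3 comparisons, *Hoxc8* being the addition. Most members had under 50 counts per library, which limits every fold change.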
